A study of Mus musculus with 8 samples.

Results

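Amino acids enter and leave cells through membrane proteins of the solute carrier (Slc) families, and 10 genes of such plasma membrane transporters were followed here by gene symbol in a table of 43430 genes from mouse lung endothelial cells. All 10 symbols matched 1 row each, and 9 passed the filter on low counts that left 12689 genes for testing. Slc7a11 did not pass that filter. The cells came from lungs of C57BL/6 mice at postnatal day 15, sorted by flow cytometry for CD31, a surface protein of endothelium. The knockout (KO) mice lacked QPC in endothelial cells, a subunit of complex III of the mitochondrial respiratory chain (read here as the gene Uqcrq), and the other group was wild type (WT). The labels of both groups give the same tamoxifen treatment, from postnatal day 0 to day 4, while the design text names day 0 only. They name neither the allele of QPC nor the recombinase or the promoter that drives it. Each group had 4 libraries, and as the labels do not say that each came from a separate animal, p-values measure only the spread between these libraries. Values per library are given in the order of replicates 1 to 4.

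Transporters differ in what they carry and in what drives them. Slc3a2 encodes the 4F2 heavy chain (CD98), which brings a light chain to the cell surface, and the light chain does the transport. Its light chains include LAT1 (Slc7a5), which exchanges leucine and other large neutral amino acids, and xCT (Slc7a11), which takes up cystine in exchange for glutamate. Slc7a1 (CAT1) works without a heavy chain and carries arginine, lysine and ornithine. Slc1a4 (ASCT1) and Slc1a5 (ASCT2) exchange small neutral amino acids such as serine and alanine, and Slc1a5 also exchanges glutamine. Slc38a2 (SNAT2) takes up small neutral amino acids with sodium. Several of these genes are known targets of ATF4, the factor through which the integrated stress response acts on transcription.

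The shallowest library, WT replicate 3, held 6407924 counts and the deepest, KO replicate 4, 13981329. In a principal component analysis of log2 CPM, WT replicate 3 stood apart from the rest on the first component (168 against -51.2 to -7.20) and KO replicate 1 on the second (-139 against -27.1 to 58.0). All 9 endothelial markers listed were tested, with Tek and Erg called lower in KO and 0 called higher. Of all genes tested 1.39% were called lower. Tek, Erg and Cdh5 lay lower in every KO library than in any WT library, but Cdh5 was not called (edgeR adjusted p = 0.13). None of the 9 lay higher in every KO library. Downward, 4.67% of all genes tested were so separated, and upward 6.94%. CPM are counts brought to a common library size with TMM factors. The summed level of the 9 was 13921 to 16644 CPM in WT and 12136 to 15706 CPM in KO. Of the alveolar type 2 markers 7 of 7 were tested and 0 called. They summed to 3650 to 21587 CPM in WT and 3487 to 15697 CPM in KO, so their RNA was present in both groups. In WT replicates 1 and 4 their sum was above the endothelial sum (21587 against 14951 and 16365 against 13921 CPM). The same held in KO replicate 3 (15697 against 13198 CPM), and the sum was lower in the remaining libraries. Levels below are of whole libraries, and the part of non-endothelial cells in them was not tested. No tested marker of the other non-endothelial cell types listed was called. In bulk RNA, fewer cells of a type and less RNA per cell cannot be told apart. Uqcrq was 26.3, 24.5, 26.8 and 31.5 CPM in the WT libraries and 1.59, 15.6, 9.57 and 14.0 CPM in the KO libraries. Its highest KO value was under its lowest WT value, but the gene did not pass in the test across genes (log2 fold change -1.42, SE 0.53, edgeR adjusted p = 0.179).

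In KO cells, 1 of the 9 tested transporters, Slc7a1, was called higher and 0 were called lower (edgeR quasi-likelihood test, adjusted p under 0.05). Of all genes tested, 2.25% were called higher and 1.39% lower, 3.63% in all. For 5 of the 9 (Slc7a1, Slc7a5, Slc1a4, Slc38a2 and Slc6a9) all 4 KO libraries lay above all 4 WT libraries, and for Slc43a2 all lay below. Such a separation was seen in 6.94% of all tested genes upward and in 4.67% downward, 11.6% in all. At an unadjusted p under 0.05 stood 6 of the 9, against 15.2% of all genes tested. The median log2 fold change of the 9 was 0.68, against 0.013 over all genes tested. The 10 genes were put together with earlier results of these data known, so these counts are not independent evidence of a direction. By DESeq2 3 of the 9 were called higher and 0 lower, but Slc6a9 and Slc1a3 had no adjusted p there. Among all genes with an adjusted p by DESeq2, 4.77% were called higher and 4.24% lower. With limma voom 2 of the 9 were called higher and 0 lower (2.66% and 1.76% of all genes). The newer dispersion option of edgeR gave 3 higher and 0 lower (3.55% and 2.34% of all genes). The count fell to 0 without WT replicate 1 or KO replicate 3 and came to 2 without WT replicate 2 or WT replicate 3. When WT replicate 3 and KO replicate 1, the libraries that stood apart, were both dropped, 1 member was called, Slc1a4 in place of Slc7a1.

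**Figure D1:**
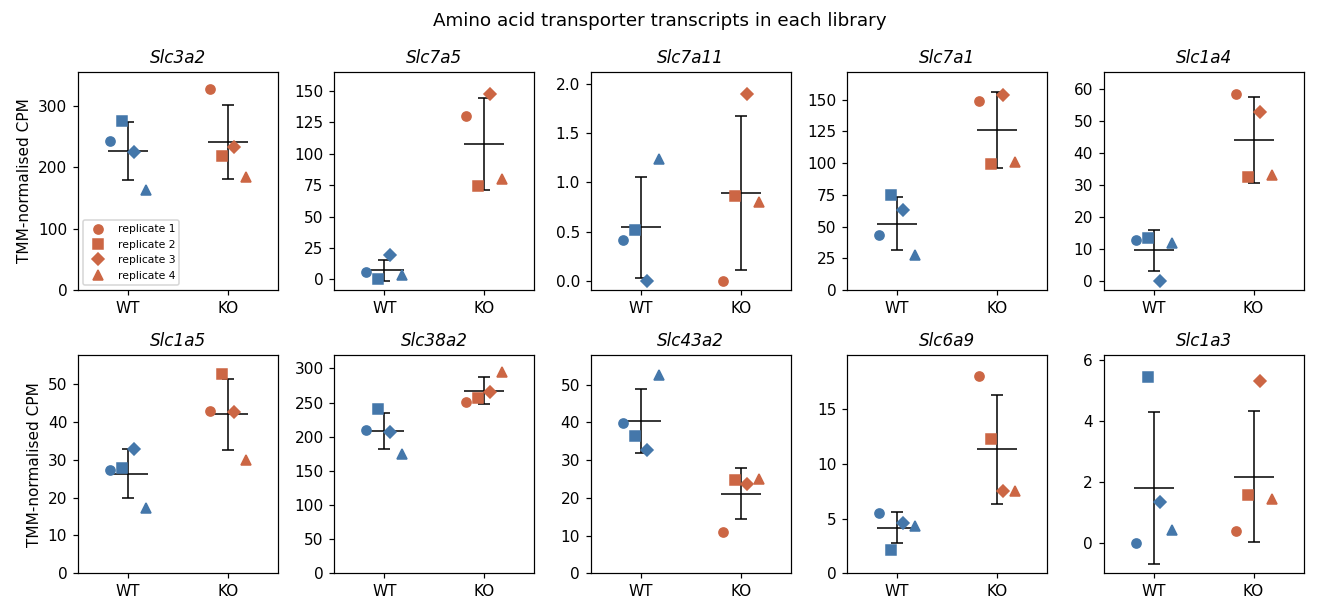
Level of the 10 transporter transcripts in each library, in TMM-normalised CPM on a linear axis, with 1 marker shape per replicate number and the mean and SD (n = 4) in black. Slc7a5, Slc7a1, Slc1a4, Slc38a2 and Slc6a9 lie higher in every KO library than in any WT library, Slc43a2 lies lower, and the groups overlap for the other 4.

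Levels were put in order within a group as CPM per kb of merged exon length. In WT cells Slc3a2 stood first at 64.2 ± 13.4 CPM per kb (SD, n = 4), and Slc38a2 second at 23.5 ± 3.02 CPM per kb, with no overlap between them. Below them came Slc1a5 (6.30 CPM per kb), Slc7a1 (4.54), Slc43a2 (4.02), Slc1a4 (2.42) and Slc7a5 (1.96), and each of these overlapped its neighbour in that order. Slc6a9 followed at 0.811 CPM per kb, Slc1a3 at 0.211 and Slc7a11 at 0.039. In KO cells Slc3a2 was again first at 68.2 ± 17.2 CPM per kb, but Slc7a5 took the third place at 29.1 ± 9.84 CPM per kb, in the range of Slc38a2 at 30.2 ± 2.23 CPM per kb. Slc7a5 thus moved from the seventh to the third place among the 10 genes, and no library of Slc1a4, the fourth, reached it.

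Slc7a5 encodes the light chain LAT1. Its gene spans chr8:121881150-121907694 on the minus strand (GRCm38, as for all positions given). It had 5.86, 0, 19.3 and 3.87 CPM in the WT libraries and 130, 74.2, 148 and 80.01 CPM in the KO libraries. The lowest KO library lay well above the highest WT library, and the WT libraries differed widely among themselves. The WT mean was 7.25 ± 8.38 CPM and the KO mean 108 ± 36.5 CPM (SD, n = 4 each), a ratio of 14.9. Its log2 fold change was 3.95 (SE 1.10), which did not pass (edgeR adjusted p = 0.132). WT replicate 2 held 0 reads of this gene, which allows up to 0.259 CPM at 3 counts, while the other WT libraries held 70, 129 and 47 reads. Without WT replicate 2 the log2 fold change was 3.52 (SE 0.57) and passed (edgeR adjusted p = 0.0123). The gene also passed by DESeq2 (adjusted p = 0.0289), with limma voom (0.0269) and with the newer dispersion option (1.52e-05), in a range up to 0.289 without KO replicate 3.

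A count of 0 in 1 library was not peculiar to Slc7a5. Among tested genes that averaged at least 5 CPM in the other 3 libraries of the group, a minimum chosen after the data were seen, 2.25% were at 0 in WT replicate 2 and 5.19% in WT replicate 3, the shallowest library. The share was 1.05% and 1.31% in WT replicates 1 and 4. In KO it was 3.41% in replicate 1 and 0.0663% to 0.413% in the other three. Activated T cells are also known for abundant LAT1. The 6 T and NK cell markers, of which 0 passed the low-count filter and Cd3g was at 0 in every library, summed to 0 to 0.67 CPM in WT and to 4.03, 0.70, 6.01 and 1.88 CPM in the KO libraries. Their part in the level of Slc7a5 was not tested.

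Slc3a2, the heavy chain gene on the minus strand of chromosome 19 (8706882 to 8723369), showed no comparable difference. It had 242, 276, 225 and 163 CPM in the WT libraries and 326, 219, 233 and 184 CPM in the KO libraries. The groups overlapped over most of their range, with the highest value in KO replicate 1 and the lowest in WT replicate 4. The log2 fold change was 0.09 (SE 0.19, edgeR adjusted p = 0.925), and its sign turned without KO replicate 1 (-0.09) or WT replicate 4 (-0.04).

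The light chains that pair with Slc3a2 (Slc7a5, Slc7a6, Slc7a7, Slc7a8, Slc7a10 and Slc7a11) were summed per library as CPM per kb. The sum was 19.6, 15.4, 17.9 and 17.8 CPM per kb in the WT libraries and 45.1, 31.7, 54.8 and 35.7 CPM per kb in the KO libraries. Slc7a5 made up 8.08, 0, 29.0 and 5.87% of that sum in the WT libraries and 77.7, 63.2, 72.8 and 60.5% in the KO libraries. In WT the largest share was that of Slc7a7 (y+LAT1, which exports cationic amino acids), at 55.3 ± 4.73% of the sum against 14.8 ± 3.17% in KO (SD, n = 4 each). Without Slc7a5 the light chains summed to 15.7 ± 2.24 CPM per kb in WT and 12.7 ± 2.22 in KO. Relative to Slc3a2 the whole sum was 0.287 ± 0.0768 in WT and 0.628 ± 0.160 in KO, so the heavy chain transcript stayed above its light chains in each of the 8 libraries. These sums over members are descriptions and were given no test.

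**Figure D2:**
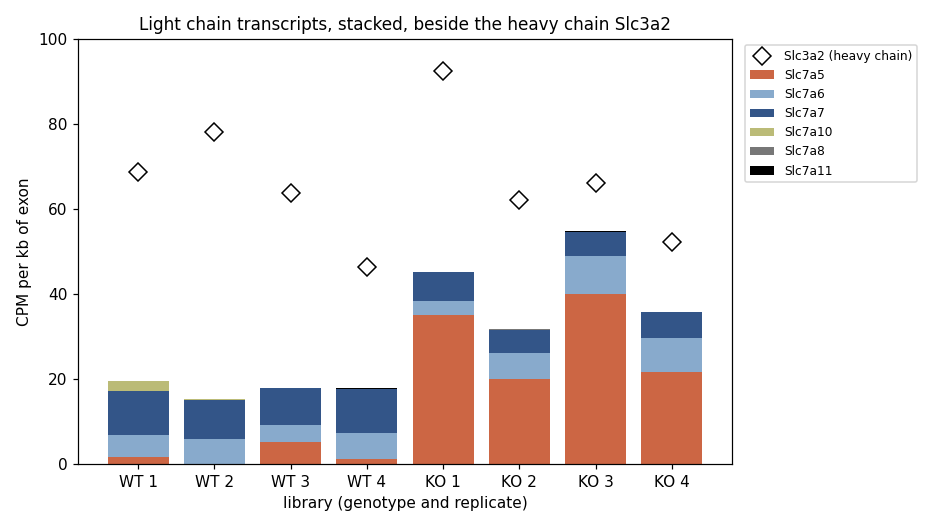
Light chain transcripts as stacked bars and the heavy chain Slc3a2 as diamonds, in CPM per kb of exon, for each library. Slc7a5 fills 60.5% to 77.7% of the bar in KO and 0% to 29.0% in WT, and every diamond lies above its bar.

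Slc7a11, the gene of the cystine carrier (chr3:49892526-50443614, minus strand), was close to undetected. It had 5, 6, 0 and 15 reads in the WT libraries and 0, 11, 24 and 11 reads in the KO libraries, which came to at most 1.90 CPM. At this depth no difference between the groups was detectable. With no low-count filter the fit gave a log2 fold change of 0.70 (SE 2.92, edgeR adjusted p = 0.961). Gclc and Gclm, whose products use the imported cysteine for glutathione, were listed among the enzymes considered further on and did not pass. The RefSeq promoter table (GRCm38.p6) matched 8 of the 10 genes with 12 start sites, and Slc7a5 and Slc1a5 had no entry. The 250 bases before each start were searched on both strands for TGATGNAA, the core of the element that ATF4 binds together with C/EBP proteins. Of all 32851 windows of this length 3.45% held it, and of the 12 windows of these genes only that of Slc7a11 did. It held the motif at both -66 and -47 from the start, on opposite strands and without overlap between them. The window of Slc7a11 is shown with these matches in capitals, beside those of Slc7a1 (the upstream one of 2 start sites) and Slc1a4, which were higher in every KO library and held no match. All 3 lie on the minus strand and are written 5′ to 3′ along the gene.
Slc7a11, chr3:50443614-50443863: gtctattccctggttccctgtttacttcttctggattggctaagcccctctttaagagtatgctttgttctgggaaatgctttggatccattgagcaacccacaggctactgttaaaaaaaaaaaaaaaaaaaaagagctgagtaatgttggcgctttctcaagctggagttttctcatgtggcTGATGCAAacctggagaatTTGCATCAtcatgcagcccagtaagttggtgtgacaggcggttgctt
Slc7a1, chr5:148399905-148400154: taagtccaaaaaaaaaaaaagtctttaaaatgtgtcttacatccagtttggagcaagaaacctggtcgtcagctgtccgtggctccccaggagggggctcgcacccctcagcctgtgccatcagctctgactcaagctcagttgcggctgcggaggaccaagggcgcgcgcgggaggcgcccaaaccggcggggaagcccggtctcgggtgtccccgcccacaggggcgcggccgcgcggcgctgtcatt
Slc1a4, chr11:20332714-20332963: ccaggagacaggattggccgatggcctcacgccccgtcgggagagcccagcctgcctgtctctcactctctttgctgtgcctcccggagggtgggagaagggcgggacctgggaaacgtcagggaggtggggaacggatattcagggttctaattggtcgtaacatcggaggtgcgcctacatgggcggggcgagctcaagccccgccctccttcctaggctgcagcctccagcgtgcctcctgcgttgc
A match is a description of these letters, and its absence from a window says nothing about sites elsewhere in the gene.

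Slc7a1 encodes the arginine and lysine carrier CAT1 and spans chr5:148327410-148399904 on the minus strand. It had 43.6, 74.8, 63.4 and 27.5 CPM in the WT libraries and 149, 99.3, 154 and 101 CPM in the KO libraries. The groups did not overlap, and KO replicates 1 and 3 were the highest. The gene rose from 52.3 ± 20.98 CPM to 126 ± 29.8 CPM (SD, n = 4 each), with a log2 fold change of 1.27 (SE 0.28, edgeR adjusted p = 0.0167). It did not pass without WT replicate 1 (edgeR adjusted p = 0.0613) or KO replicate 3 (0.062), nor when WT replicate 3 was dropped together with KO replicate 1 (0.0702). It also did not pass when a trend on exon length and GC content was removed with a plain smoother (0.058), but did with an outlier-resistant one (0.00666) added after that result was seen.

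Slc1a4 encodes the serine and alanine exchanger ASCT1 (minus strand of chromosome 11, 20302180 to 20332713). It had 12.6, 13.5, 0 and 11.9 CPM in the WT libraries and 58.4, 32.3, 52.6 and 33.0 CPM in the KO libraries. The 3 WT libraries with reads lay close together, and every KO library lay above the highest of them. The WT mean was 9.51 ± 6.37 CPM and the KO mean 44.1 ± 13.4 CPM (SD, n = 4 each), a ratio of 4.64. Its log2 fold change was 2.20 (SE 0.86), which did not pass (edgeR adjusted p = 0.255). WT replicate 3 held 0 reads, which allows up to 0.449 CPM at 3 counts, against 145 to 156 reads in the other WT libraries. Without this library the log2 fold change was 1.80 (SE 0.32) and passed (edgeR adjusted p = 0.00945), as it did by DESeq2 (0.046), with the newer dispersion option (0.00219) and when WT replicate 3 was dropped together with KO replicate 1 (0.0229). The highest adjusted p was 0.513, with the replicate number as a block.

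Slc1a5, the glutamine exchanger ASCT2 (plus strand of chromosome 7, 16781340 to 16798274), had 27.3, 27.7, 32.9 and 17.3 CPM in the WT libraries and 42.8, 52.5, 42.5 and 29.9 CPM in the KO libraries. KO replicate 4 lay below WT replicate 3, so the groups overlapped by this pair alone. The log2 fold change was 0.68 (SE 0.29) and did not pass (edgeR adjusted p = 0.27), nor in any of 20 alternatives. Slc38a2, which encodes the sodium-driven carrier SNAT2 (minus strand of chromosome 15, 96687392 to 96699730), had 210, 240, 207 and 175 CPM in the WT libraries and 251, 257, 266 and 295 CPM in the KO libraries. The groups were separated by a narrow gap, between WT replicate 2 and KO replicate 1. Its log2 fold change of 0.36 (SE 0.14) was the smallest among the separated members and did not pass (edgeR adjusted p = 0.206), nor in any of 20 alternatives.

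Slc43a2 (LAT4), a carrier of leucine, phenylalanine and methionine that needs no heavy chain, was the 1 member whose KO libraries all lay below the WT libraries. The gene lies on the plus strand of chromosome 11 (75531694 to 75577575). It had 39.8, 36.4, 32.7 and 52.4 CPM in the WT libraries and 10.96, 24.8, 23.6 and 24.9 CPM in the KO libraries. KO replicate 1 stood apart below the other KO libraries. Its log2 fold change was -0.94 (SE 0.32), which did not pass (edgeR adjusted p = 0.14), nor in any of 20 alternatives (0.0718 to 0.326). An antisense gene, Gm45606, overlaps 9.18% of the exon bases of Slc43a2, and without a stated strand setting their reads cannot be told apart. As CPM per kb, Slc7a5 was 0.398, 0, 1.60 and 0.200 times Slc43a2 in the WT libraries and 32.1, 8.10, 17.0 and 8.70 times in the KO libraries. Of these 2 leucine carriers Slc43a2 had the more abundant transcript in 3 of 4 WT libraries, and Slc7a5 in every KO library.

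Slc6a9 encodes the glycine carrier GlyT1 (plus strand of chromosome 4, 117834506 to 117875198). It had 5.52, 2.16, 4.63 and 4.36 CPM in the WT libraries and 18.0, 12.2, 7.52 and 7.53 CPM in the KO libraries. The groups did not overlap, but KO replicates 3 and 4 lay near the highest WT library. The log2 fold change was 1.44 (SE 0.78) and did not pass (edgeR adjusted p = 0.434). Exons of Ccdc24, Gm17114 and B4galt2 on the opposite strand cover 27.8%, 9.94% and 0.895% of the exon bases of Slc6a9, so its counts are uncertain. Slc1a3, the glutamate and aspartate carrier GLAST (minus strand of chromosome 15, 8634124 to 8710764), had 0, 5.43, 1.34 and 0.412 CPM in the WT libraries and 0.375, 1.57, 5.30 and 1.45 CPM in the KO libraries. Its reads came mainly from 1 library of each group, and the groups overlapped throughout (log2 fold change 0.27, SE 1.83, edgeR adjusted p = 0.985).

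**Figure D3:**
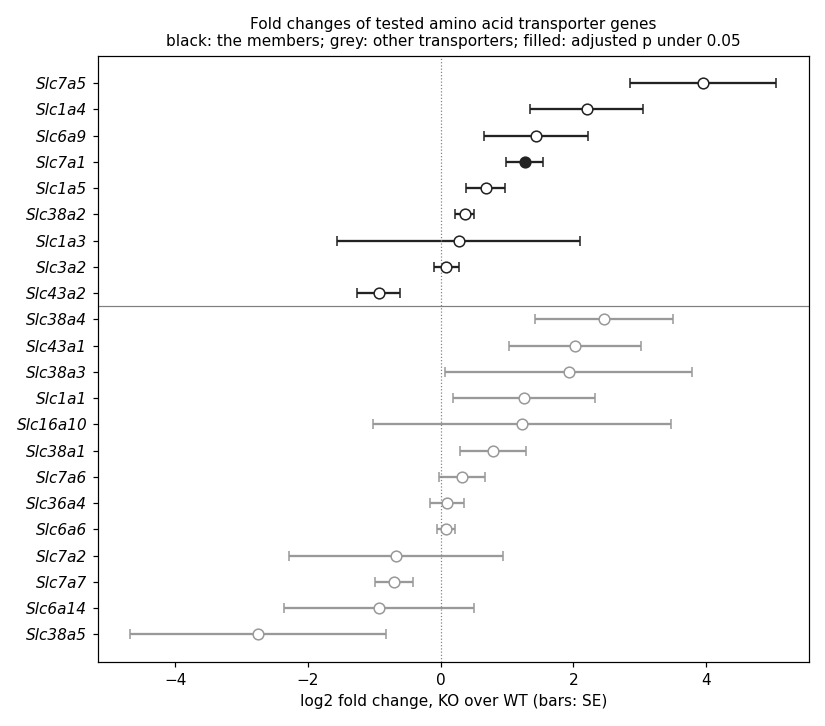
Log2 fold changes of KO over WT with SE for the 9 tested members (black) and 13 other tested plasma membrane amino acid transporters (grey), filled where the edgeR adjusted p was under 0.05. Slc7a1 alone is filled, and Slc7a5 and Slc1a4 have larger fold changes with wider errors.

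Among 30 other plasma membrane amino acid transporters, 13 passed the low-count filter and 11 had 0 reads in all 8 libraries. By edgeR 0 of the 13 were called in either direction, where 3.63% of all genes tested were called. At an unadjusted edgeR p under 0.05 stood 2 of the 13, against 15.2% of all genes tested. Both counts are thus near the shares of all genes. By DESeq2 and limma voom 0 were called. With the newer dispersion option 1 was called higher, as were 3.55% of all genes tested. The most abundant in WT was the taurine carrier Slc6a6, at 65.0 ± 10.9 CPM per kb in WT and 68.7 ± 6.13 CPM per kb in KO (SD, n = 4 each), a level like that of Slc3a2. Slc36a4, a proline and tryptophan carrier, had 7.05 CPM per kb in WT and 7.52 in KO.

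For 3 of the 13 the groups did not overlap, 2 with KO higher and 1 with KO lower, where 6.94% and 4.67% of all genes tested were so separated. Slc7a7 had 34.6, 30.1, 29.4 and 34.9 CPM in the WT libraries and 22.6, 18.2, 18.7 and 19.7 CPM in the KO libraries. It was the lower of these, with little spread within either group (log2 fold change -0.71, SE 0.29, edgeR adjusted p = 0.237). Slc38a4, a relative of Slc38a2, had 0.586, 0, 5.83 and 5.68 CPM in the WT libraries and 22.5, 19.0, 10.3 and 14.5 CPM in the KO libraries (log2 fold change 2.46, SE 1.03, edgeR adjusted p = 0.255). This was the gene called with the newer dispersion option (edgeR adjusted p = 0.0209). Slc43a1 (LAT3), a leucine carrier related to Slc43a2, had 3.85, 6.90, 0 and 2.63 CPM in the WT libraries and 7.68, 13.4, 9.18 and 24.6 CPM in the KO libraries (log2 fold change 2.02, SE 1.00, edgeR adjusted p = 0.359). The fitted values of Slc43a1 and Slc43a2 thus had opposite signs, and neither passed.

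Of 15 mitochondrial and lysosomal amino acid carriers 13 were tested, and 0 passed by edgeR, DESeq2 or limma voom. Of all genes tested 3.63% were called by edgeR, so 0 of 13 is near that share. At an unadjusted edgeR p under 0.05 stood 4 of the 13, against 15.2% of all genes tested. The median log2 fold change of these 13 carriers was -0.48, against 0.68 for the 9 plasma membrane members. It was 0.32 for the 13 other plasma membrane transporters and 0.013 over all genes tested. The differences were not tested. Among 21 enzymes that use the carried amino acids 15 were tested, and 4 were called higher and 0 lower, against 2.25% and 1.39% of all genes tested. By DESeq2 5 were called higher, against 4.77% of all genes with an adjusted p. With limma voom 3 were called higher (2.66% of all genes tested), and with the newer dispersion option 5 (3.55%). All 15 had a positive log2 fold change, as had 51.0% of all genes tested, and their median was 0.43. Like the members, the lists of carriers and enzymes were chosen with earlier results of these data known. Their counts and medians are therefore not independent evidence of a direction. Odc1, which makes the polyamine putrescine from ornithine, rose from 82.4 ± 13.9 CPM to 380 ± 144 CPM, with a log2 fold change of 2.21 (SE 0.23) and an edgeR adjusted p of 0.000175. Asns, asparagine synthetase, rose from 23.4 ± 10.2 CPM to 121 ± 49.0 CPM, a log2 fold change of 2.36 (SE 0.40, edgeR adjusted p = 0.006). Shmt2, which splits serine in mitochondria, rose from 33.6 ± 7.21 CPM to 102 ± 16.6 CPM, a log2 fold change of 1.60 (SE 0.23, edgeR adjusted p = 0.000906). Got1, which makes or uses aspartate in the cytosol, rose from 5.16 ± 2.69 CPM to 29.7 ± 13.7 CPM, a log2 fold change of 2.53 (SE 0.53, edgeR adjusted p = 0.0123). That call was lost without KO replicate 3 (0.0754), with limma voom (0.0976) and after plain smoothing of length and GC (0.0858). Nos3, the endothelial enzyme that makes nitric oxide from arginine, had a log2 fold change of 0.22 (edgeR adjusted p = 0.625). That of Gclc was 0.18 (edgeR adjusted p = 0.856) and that of Gclm 0.43 (edgeR adjusted p = 0.37). Nos3, Gclc and Gclm were named after their values were seen.

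The KO libraries were not alike. For Slc7a5, Slc7a1, Slc1a4 and Slc3a2, KO replicates 1 and 3 held the highest values of the KO group, which was the case for 17.7% of all genes tested. Of the 4 called enzymes it held for Odc1, Asns and Got1 but not for Shmt2, and it also held for the endothelial markers Pecam1 and Kdr. Uqcrq was 1.59 and 9.57 CPM in these libraries and 15.6 and 14.0 CPM in KO replicates 2 and 4. The other 6 members did not follow this order: Slc38a2 was highest in KO replicate 4, Slc1a5 in KO replicate 2, and Slc6a9 in KO replicates 1 and 2. Summed alveolar type 2 markers were 3487 and 15697 CPM in KO replicates 1 and 3, the lowest and highest of the group. With 4 KO libraries no relation between these genes and Uqcrq was tested.

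**Figure D4:**
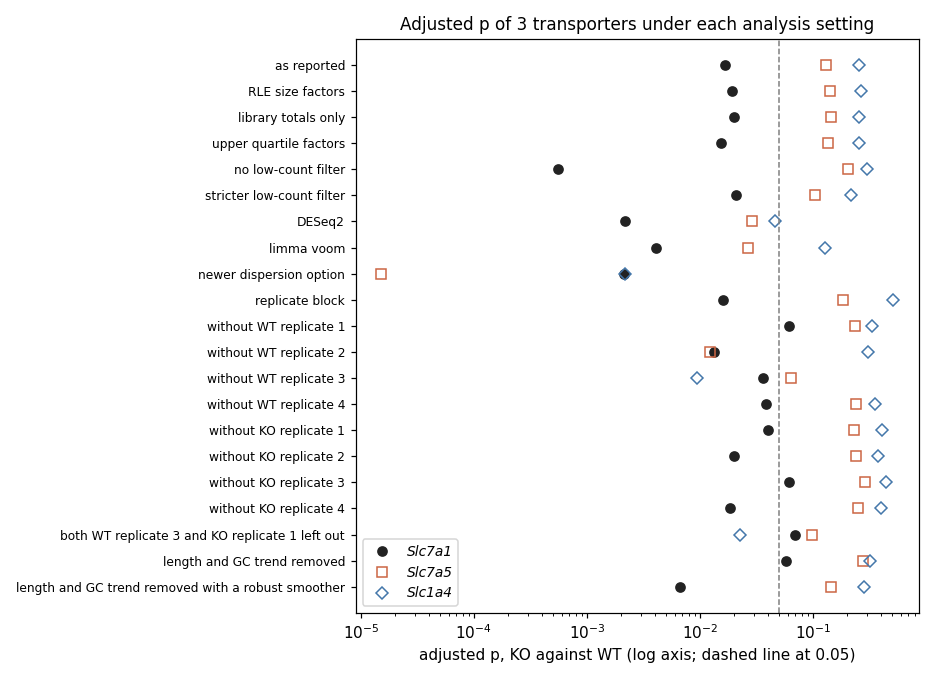
Adjusted p of Slc7a1, Slc7a5 and Slc1a4 (log axis, dashed line at 0.05) as reported and under 20 other settings. Slc7a1 lies past the line in 16 of the 20, Slc7a5 and Slc1a4 in 4 each, among them the setting without the WT library that held 0 reads of the gene.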

How the data were processed

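RNA-seq was done on 4 WT and 4 KO samples of sorted lung endothelium. The authors deposited raw read counts per gene, 1 column per library. The submitters' processing notes name TopHat, HTSeq, edgeR and bcl2fastq, and mm10 as the build. No version, annotation release or strand setting is given in the sources used here. Of 43430 gene IDs 42546 had a symbol in GENCODE M21 (GRCm38), and IDs without one took 0.0607% to 0.0795% of counts. All 8 value columns matched a label, and 0 were left over. Libraries within a group differed beyond counting noise, with chi-square over its degrees of freedom at 32.4 to 74.6.

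After filterByExpr at a minimum count of 10 and total of 15, and TMM scaling, edgeR 4.0.16 (R 4.3.3) was fitted with genotype only and its robust quasi-likelihood test used, with Benjamini-Hochberg adjustment over 12689 genes at 0.05. SE was derived from the F statistic. Intervals at 3 counts cover counting error only. The members and gene lists were chosen with earlier results of these data known. Named beside the members were genes of the 3 further lists that passed, up to 3 other transporters with separated groups and a mean of at least 5 CPM, and the 3 with the highest WT level per kb. Alternatives tried were RLE, upper quartile or no size factors, no filter or a minimum count of 30, DESeq2 1.42.0, limma 3.58.1 (voom), the newer dispersion option, a replicate block, leaving out libraries, removal of each library's trend on exon length and GC content, and a threshold of 0.01. The pipeline was tested on simulated counts.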

Additional observations from a re-analysis of the deposited data

Results flagged for a closer look

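Among 40 groups of 4 libraries, 3 held 1 library whose gap to the nearest other, as a share of the group's range, was above Dixon's 95% critical value. Chance gives such a gap in about 1 in 20 groups. Slc1a4 was 0 CPM in WT replicate 3, with a gap of 0.887 of the range to the next WT library. Slc43a2 was 10.96 CPM in KO replicate 1, with a gap of 0.905. Slc6a6 was 412 CPM in WT replicate 2, with a gap of 0.875. The fold changes of Slc43a2 without KO replicate 1 (-0.72 on the log2 scale, edgeR adjusted p = 0.239) and of Slc6a6 without WT replicate 2 (-0.03, edgeR adjusted p = 0.962) did not pass either.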

How the results depend on the processing

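The number of members called higher, 1 by the reported test, was 3 by DESeq2, 2 by limma voom, 3 with the newer dispersion option, and 0 after plain smoothing of length and GC or at an adjusted p of 0.01. It ran from 0 to 2 when libraries were left out singly, and 0 members were called lower under any of 21 alternatives. Of the other plasma membrane transporters 1 was called higher with the newer dispersion option and 0 under the 19 other alternatives. Genes called in all numbered 461, and 788 by DESeq2, 747 with the newer dispersion option, 95 after plain smoothing of length and GC, 446 with the outlier-resistant smoother added after the data were seen, 206 at an adjusted p of 0.01 and 270 (without KO replicate 3) to 446 with 1 library left out. Signs turned, all short of the threshold, for 4 of the named transporters. The fold change of Slc1a3, which had few reads and an SE of 1.83, was poorly determined rather than near 0. Slc3a2 ran from -0.093 to 0.197 with 1 library left out (-0.039 without WT replicate 4), and was -0.096 when WT replicate 3 and KO replicate 1 were dropped together and -0.0083 with the plain smoother. Slc1a3 ran from -0.66 to 1.90 (-0.14 without WT replicate 1, -0.055 without WT replicate 4). Slc6a6 ran from -0.033 to 0.133 and was -0.017 with the plain smoother. Slc36a4 ran from -0.073 to 0.202 (-0.048 without WT replicate 4) and was -0.0036 with the plain smoother. Calls of Slc7a1, Slc7a5, Slc1a4, Got1 and Slc38a4 depended on the settings given above. The endothelial marker Tek was called lower in 19 of 20 alternatives (edgeR adjusted p = 0.13 after plain smoothing). Erg was called lower in 14 of 20, and lost its call when any of 4 libraries was left out: WT replicate 1 (edgeR adjusted p = 0.0595) or 2 (0.0772), or KO replicate 2 (0.0872) or 3 (0.0801). It also lost it after plain smoothing (0.131). The cause was not tested. With the replicate number as a block Slc7a1 had a log2 fold change of 1.34 (edgeR adjusted p = 0.0162), 1 member was called higher and 338 genes were called in all. Among named genes the block ended the call of Erg (edgeR adjusted p = 0.0585) and no other. Labels do not say that numbers mark pairs, and deviations of same-numbered libraries correlated at -0.104 to 0.00442. At the few reads of Slc7a11 the depth limited the fit.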
